A study of Homo sapiens with 15 samples.

Results

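The 7 genes described here are IER2, IER3, IER5, IER5L, CSRNP1, PHLDA1 and ARC, found by symbol among the 26485 gene symbols of the count table. All 7 were present and all 7 passed the low-count filter, which left 17243 genes for testing. They were picked by name with earlier results of these data in view, namely their rise with prexasertib. Their change from diluent to prexasertib within each line is therefore given as a description, without a p-value. The other comparisons share libraries with those contrasts, so their p-values are no independent evidence.

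RNA-seq was done on a pair of human leukemia cell lines, ML1 (myeloid) and U937 (myeloid with monocytic features), both labelled as acute myeloid leukemia. Cells were cultured for 24 h with diluent or with 10 nM prexasertib, an inhibitor of the checkpoint kinase CHK1. Another U937 group received 10 nM prexasertib together with 350 nM LSN622666, a compound known here by its code name. The pan-caspase inhibitor Q-VD-OPh was present at 5 µM in all 5 groups, diluent included, so every level below is that of cells with caspases blocked. Each group held 3 libraries. LSN622666 was not given on its own, and both compounds together were given to U937 and not to ML1. Nothing in the labels says that the replicates came from different cultures, so p-values measure the spread between these libraries, which may be technical.

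Immediate early genes are switched on within minutes of a signal by transcription factors that are already present in the cell, without new protein synthesis. Growth factors, stress kinases of the MAPK family and NF-kB signals all induce them, and many of their products are short-lived regulators that pass the signal on or damp it. IER2, IER5 and IER5L share an amino-terminal domain and act in or near the nucleus. IER5 is known to recruit the phosphatase PP2A to its partners, the heat shock factor HSF1 among them. CSRNP1 is a nuclear protein with transcription-activating function, first found as a gene induced by AXIN1. IER3, also called IEX-1, is a target of NF-kB and p53 and modulates survival and ERK signalling, and PHLDA1 is a pleckstrin-homology-like protein linked to cell death and growth factor feedback. ARC is best known from neurons, where it is made at active synapses. It encodes a capsid-forming protein derived from a retrotransposon and is a different gene from NOL3, whose protein is also called ARC.

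The positions of 6 of the genes are those of GENCODE v29 on GRCh38. IER2 is on chromosome 19, 13150415 to 13154908, plus strand. IER3 is on chromosome 6, 30743199 to 30744554, minus strand, and IER5 is on chromosome 1, 181088712 to 181092899, plus strand. IER5L spans chromosome 9, 129175552 to 129178262, minus strand, CSRNP1 chromosome 3, 39141855 to 39154562, minus strand, and PHLDA1 chromosome 12, 76025447 to 76033932, minus strand. The library kit does not mark strand. Reads from antisense RNA cannot be told apart over 359 bases of the IER3 exons (IER3-AS1) and over 946, 1063, 204 and 1332 exonic bases of IER2, IER5L, CSRNP1 and PHLDA1. The longest stretch identical between transcripts of IER5 and IER5L was 24 bases, and over all pairs of the 7 genes it was 25 bases, between IER5L and PHLDA1.

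Stretches of 3 promoters are shown. IER5 and IER5L are relatives with a like arrangement of CCAAT boxes, and CSRNP1 holds a pair of CRE cores. The sequences are those of RefSeq on GRCh38.p14, from base 150 to base 31 before the RefSeq start. The IER5 stretch is chr1:181088550-181088669 (plus strand), that of IER5L is chr9:129178292-129178411 (minus strand) and that of CSRNP1 is chr3:39153622-39153741 (minus strand). Capitals mark the CCAAT box (CCAAT, here in the reverse orientation ATTGG) in IER5 and IER5L, and the CRE core (TGACG, on either strand, here also as CGTCA) in CSRNP1.
IER5: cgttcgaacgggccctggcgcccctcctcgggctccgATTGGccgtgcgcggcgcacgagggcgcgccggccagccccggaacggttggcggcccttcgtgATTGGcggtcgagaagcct
IER5L: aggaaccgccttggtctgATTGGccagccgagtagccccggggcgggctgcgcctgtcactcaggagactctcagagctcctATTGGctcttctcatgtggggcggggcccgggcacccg
CSRNP1: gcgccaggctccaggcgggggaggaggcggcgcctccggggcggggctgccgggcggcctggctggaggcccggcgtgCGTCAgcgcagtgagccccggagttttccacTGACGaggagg

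In both IER5 and IER5L the starts of the 2 CCAAT boxes were 64 bases apart and in the same orientation. Of 35116 RefSeq promoter windows of 250 bases before the start, 9.53% held at least 2 CCAAT boxes and 0.105% held a same-orientation pair at that spacing. At least 2 CRE cores, as in CSRNP1, were in 4.76% of windows. Entries were used for 5 of the 7 genes (6 windows, 2 of them for CSRNP1), and none was used for IER3 or ARC. Of these 6 windows, 4 held a GC box (GGGCGG, in 42.6% of all windows), 3 an ETS site (CCGGAA, 14.5%), 2 a CCAAT box (32.0%), 2 a CRE core (21.2%) and 1 an NF-kB site (9.96%, in CSRNP1). None held the AP-1 site TGANTCA (6.57% of all windows), the full CRE TGACGTCA (1.65%) or a CArG box (1.16%), which says only that these letters are absent from these windows. Both strands were searched, every full CRE also holds a CRE core, and the spacing was noticed in the sequences before its share was counted.

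Levels are CPM from TMM-scaled library totals, given for replicates 1, 2 and 3 in that order. Library totals ran from 49011222 to 87301014 counts. Of 10 myeloid markers 9 were above 1 CPM in every library of each diluent group. Those of T cells (CD3E, CD3D) and epithelium (EPCAM) were at 0 counts in every group, and of 6 neuronal markers 1 was above 1 CPM in every diluent library of ML1 (RBFOX3) and another 1 in every diluent library of U937 (SYP). In these cultures a change in RNA per cell and a change in the share of cells cannot be told apart.

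In ML1 with prexasertib, all 7 genes stood above every diluent library in each of 3 libraries, as did 30.0% of all tested genes. IER5 was at 31.2, 42.2 and 36.8 CPM with diluent and at 440, 462 and 464 CPM with prexasertib. CSRNP1 was at 6.18, 6.88 and 5.99 CPM and then at 228, 213 and 221 CPM. These nuclear regulators had the tightest treated libraries of the set, with coefficients of variation of 2.86% and 3.38%.

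IER2, a nuclear regulator with the highest diluent level of the 7 in each line, went from 44.7, 58.7 and 52.9 CPM to 265, 450 and 310 CPM in ML1. IER5L, the relative of IER5, went from 2.21, 4.46 and 3.27 CPM to 28.2, 63.5 and 34.7 CPM. The survival and ERK modulator IER3 went from 0.713, 1.15 and 0.462 CPM to 184, 391 and 212 CPM. In these 3 genes ML1 prexasertib replicate 2 was the highest treated library, and it was so in ARC as well.

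PHLDA1, the death and feedback gene, went from 2.17, 2.60 and 2.36 CPM to 74.2, 55.0 and 53.5 CPM, with replicate 1 the highest. ARC, the neuronal capsid gene (chromosome 8, 142611044 to 142614472, minus strand), was represented by 2, 3 and 2 reads in the 3 diluent libraries and by 2697, 3906 and 2825 reads with prexasertib, or 46.1, 69.3 and 52.0 CPM. Its ratio from summed counts (9428 against 7) was 1590 with a 95% counting interval of 771 to 3950, which covers counting error only. ARC went in this line from among the rarest tested transcripts (level rank 15979 of 17243) to rank 4306.

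The ML1 log2 fold changes were 10.56 ± 0.68 for ARC (± standard error), 8.35 ± 0.69 for IER3, 5.11 ± 0.16 for CSRNP1 and 4.68 ± 0.32 for PHLDA1. They were 3.66 ± 0.34 for IER5L, 3.63 ± 0.24 for IER5 and 2.71 ± 0.23 for IER2. ARC had the 4th largest fold change of all 17243 tested genes and IER3 the 65th. The call rule, edgeR's quasi-likelihood test with a Benjamini-Hochberg adjusted p under 0.05, was met upward by 7 of 7 members and by 25.3% of all tested genes, and the members' median log2 fold change was 4.68 against 0.02 over all genes. Since this contrast was in view when the genes were picked, nothing is read from that count.

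**Figure D1:**
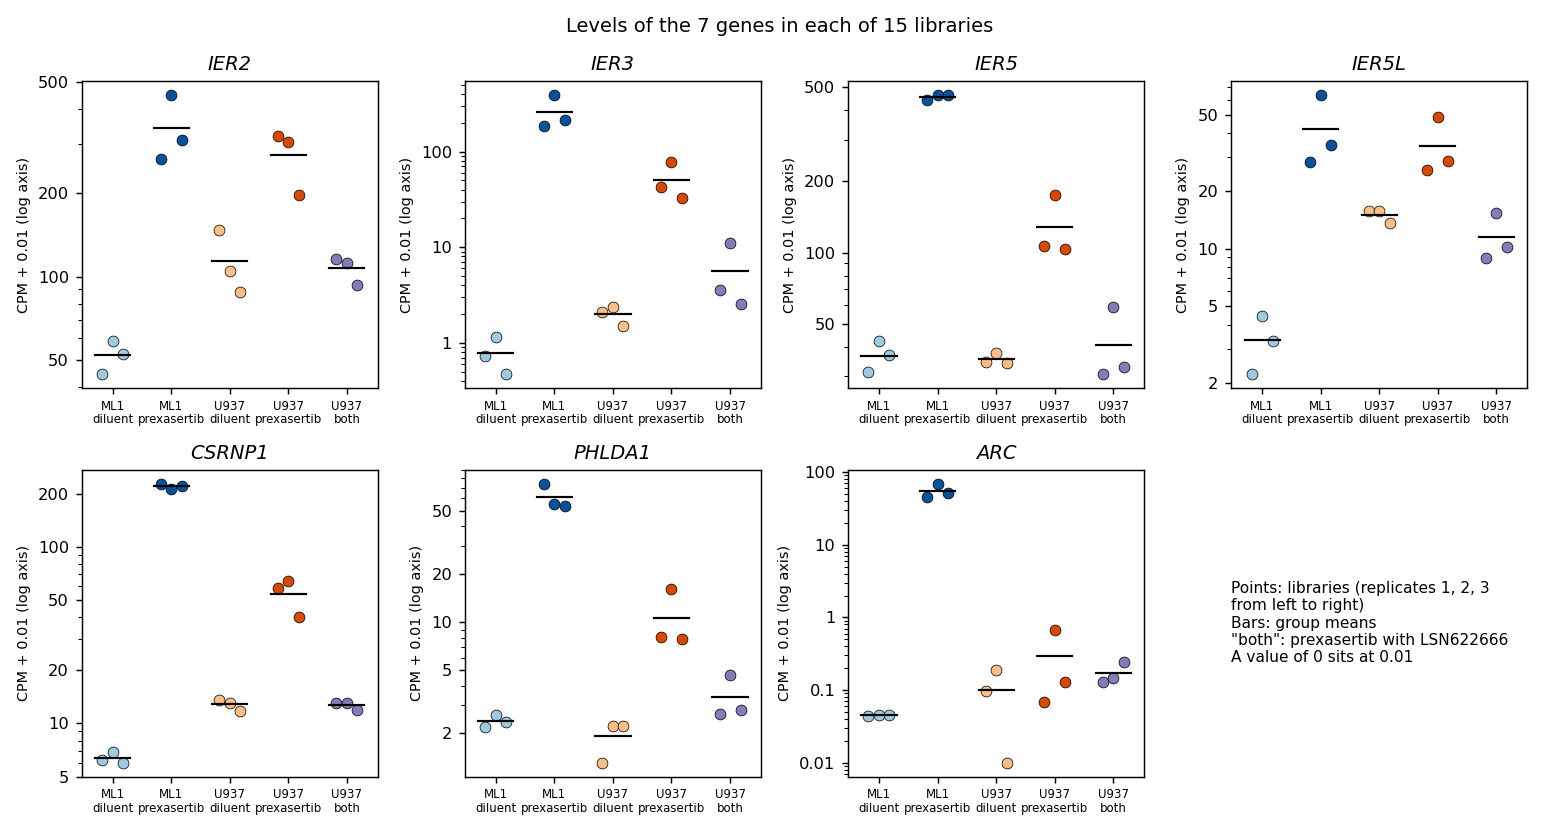
CPM of the 7 genes in each of 15 libraries on a log axis (0.01 added; a count of 0 sits at 0.01), with points for libraries in replicate order and bars for group means. ML1 prexasertib libraries lie above ML1 diluent libraries in every panel, and in the ARC panel only ML1 with prexasertib is above 1 CPM.

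Other cell-identity transcripts also moved in ML1. The summed level of 10 myeloid markers was 2020 to 2290 CPM with diluent and 4790 to 6430 CPM with prexasertib. The rise in this sum was mostly LYZ (mean 513.7 CPM with diluent and 3627 CPM with prexasertib). Of the 10, 7 rose, where 25.3% of all tested genes did, and 1, MPO, fell. The summed level of 11 markers listed for other cell types went from 46.7 to 58.0 CPM up to 218 to 298 CPM. Most of it was PECAM1 (mean 48.4 and 246 CPM), with CD3E, CD3D, HBB and EPCAM at 0. PECAM1 was also at a mean of 57.6 CPM in U937 with diluent and 42.05 CPM with prexasertib. What it marks in these lines was not tested. The 6 neuronal markers summed to 1.66 to 2.27 CPM with diluent and 4.16 to 4.48 CPM with prexasertib, with SYT1 at 0, beside an ARC level of 55.8 ± 12.1 CPM with prexasertib (mean ± SD, n = 3). Their part in the members' levels was not tested.

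In U937 the genes other than ARC were higher with prexasertib in each of 3 libraries, 6 of 7 where 24.0% of all tested genes were. IER3 went from 2.07, 2.34 and 1.497 CPM with diluent to 42.4, 77.3 and 32.9 CPM, and PHLDA1 from 1.30, 2.23 and 2.22 CPM to 8.08, 16.2 and 7.87 CPM. CSRNP1 went from 13.5, 13.1 and 11.8 CPM to 58.6, 63.8 and 39.9 CPM. For these survival, feedback and nuclear genes the diluent and prexasertib libraries did not overlap.

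IER5 went from 34.5, 37.6 and 34.1 CPM to 106, 175 and 103 CPM. IER2 went from 148, 105 and 88.1 CPM to 320, 304 and 196 CPM, and IER5L from 15.7, 15.7 and 13.7 CPM to 25.7, 48.7 and 28.8 CPM. Again the 2 groups did not overlap for any of these 3 relatives.

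ARC had 6, 10 and 0 reads with diluent and 4, 44 and 8 reads with prexasertib. The empty library allows a level of up to 0.0641 CPM (3 counts). Its U937 groups overlapped, and 44 of the 56 prexasertib reads came from replicate 2.

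The U937 log2 fold changes were 4.68 ± 0.59 for IER3, 2.49 ± 0.30 for PHLDA1, 2.08 ± 0.14 for CSRNP1 and 1.86 ± 0.22 for IER5. They were 1.27 ± 0.22 for IER2, 1.196 ± 0.31 for IER5L and 1.58 ± 0.78 for ARC. The call rule was met upward by 6 of 7 members, all but ARC, and by 18.3% of all tested genes. As in ML1, nothing is read from that count. Prexasertib replicate 2 was the highest of the 3 treated libraries for 6 of the 7 genes, the exception being IER2. Without it IER5L stood at 0.83, ending its call, and ARC at -0.08. Without prexasertib replicate 1 ARC was at 2.03. Of 13 alternatives, 11 kept the direction of ARC and its side of the threshold, and an alternative gave it a call. The myeloid markers summed to 1000 to 1230 CPM with diluent, 866 to 1030 CPM with prexasertib and 1030 to 1180 CPM with both compounds.

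The prexasertib response, as a fold change from diluent, was smaller in U937 than in ML1 for every one of the 7 genes. For IER2 and IER5L the prexasertib levels of the 2 lines overlapped, and their diluent levels were higher in U937. For the other genes the prexasertib levels did not overlap. How many of all tested genes were apart in this way was not counted, so nothing is read from it. The difference of the log2 fold changes, U937 minus ML1, was -8.97 ± 1.42 for ARC (edgeR's quasi-likelihood test, adjusted p = 0.00019) and -3.67 ± 0.81 for IER3 (adjusted p = 0.0049). It was -3.04 ± 0.20 for CSRNP1, -2.46 ± 0.44 for IER5L and -2.19 ± 0.41 for PHLDA1 (adjusted p = 9.2e-09, 0.00053 and 0.00063 from edgeR). IER5 and IER2 differed by -1.77 ± 0.31 and -1.44 ± 0.31 (adjusted p = 0.00036 and 0.0019 from edgeR). So 7 of 7 members passed downward, against 12.3% of all tested genes. This test is built from the libraries that were in view when the genes were picked, so nothing is read from that count.

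The value for ARC was -10.64 without U937 prexasertib replicate 2 and -8.17 without U937 diluent replicate 2 (edgeR's quasi-likelihood test, adjusted p = 1e-06 and 0.0094). In both cases it stayed below the threshold, and over all alternatives its adjusted p ran from 5.2e-10 to 0.0094. For the other 6 genes no alternative moved the difference by more than 1.5-fold.

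With diluent alone, 3 of the 7 genes were higher in U937 than in ML1 and the other 4 had no call. IER5L was higher by 2.17 ± 0.33 on the log2 scale, IER2 by 1.12 ± 0.22 and CSRNP1 by 1.01 ± 0.14 (edgeR's quasi-likelihood test, adjusted p = 1.9e-05, 0.00024 and 8.8e-06). The share of all tested genes called higher was 32.0%, so 3 of 7 is near the background. IER3 was higher in every U937 library without a call (1.30 ± 0.64, edgeR adjusted p = 0.094). The DESeq2 test and a fit to the diluent groups alone called it (adjusted p = 0.041 and 0.0052), the range over all alternatives being 0.00028 to 0.23. IER5 (-0.06 ± 0.22), PHLDA1 (-0.32 ± 0.30) and ARC (1.35 ± 1.16) had overlapping groups, with edgeR adjusted p of 0.84, 0.36 and 0.33.

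Adding LSN622666 to prexasertib lowered 6 of the 7 genes in U937, and for those 6 every combination library was below every prexasertib library, as it was for 23.4% of all tested genes. CSRNP1 was at 13.07, 13.09 and 11.97 CPM with both compounds and IER5 at 30.7, 59.0 and 33.0 CPM. IER2 was at 116, 112 and 93.2 CPM and IER5L at 8.92, 15.4 and 10.2 CPM. All 3 libraries of CSRNP1 and of IER2 were within the range of the diluent libraries. IER5 had 1 library above that range and 2 below it, and IER5L had 2 below it.

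IER3 was at 3.56, 10.9 and 2.53 CPM with both compounds and PHLDA1 at 2.66, 4.66 and 2.78 CPM. Combination replicate 2 was the highest library for both, as prexasertib replicate 2 had been. For the survival and feedback genes every combination library was above every diluent library, 2 of 7 members where 17.8% of all tested genes were. ARC had 8, 10 and 19 reads (0.120, 0.137 and 0.231 CPM), a level that overlapped both other U937 groups.

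Against prexasertib alone, IER3 fell by 3.17 ± 0.53 on the log2 scale (edgeR's quasi-likelihood test, adjusted p = 0.001), and by 4.07 without combination replicate 2. CSRNP1 fell by 2.09 ± 0.14, the smallest p of the set (edgeR adjusted p = 5.7e-07). PHLDA1, IER5, IER5L and IER2 fell by 1.67 ± 0.28, 1.65 ± 0.22, 1.58 ± 0.31 and 1.35 ± 0.22 (adjusted p = 0.00043, 6.7e-05, 0.0014 and 3e-04 from edgeR). ARC had no call (-0.76 ± 0.66, edgeR adjusted p = 0.41), and its value was 0.88 without prexasertib replicate 2. The 6 of 7 compare with 17.1% of all tested genes called lower, and the median was -1.65 against 0.01 over all genes. The prexasertib libraries of this comparison are among those in view when the genes were picked for being high in them. The test did not use the pairing of same-numbered libraries described below, and the replicate block changed no call of the members here.

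Against diluent, 0 of 7 members were called in the combination with edgeR's quasi-likelihood test, where 11.0% of all tested genes were. At an unadjusted p under 0.05 the count was 2 (IER3 and PHLDA1). The share of all tested genes under that rule was not counted, so nothing is read from it. DESeq2 called 1 (PHLDA1), where of 16898 genes it called 1620 higher and 1395 lower. IER3 stood 1.51 ± 0.56 above diluent on the log2 scale (edgeR adjusted p = 0.096) and PHLDA1 0.82 ± 0.30 above (edgeR adjusted p = 0.078). IER5 (0.21 ± 0.22), CSRNP1 (-0.01 ± 0.14), IER2 (-0.08 ± 0.22), IER5L (-0.38 ± 0.31) and ARC (0.83 ± 0.84) had edgeR adjusted p of 0.56, 0.98, 0.84, 0.43 and 0.55. A missed threshold does not show that these levels are those of diluent. With the replicate block edgeR called IER3 and PHLDA1 higher and IER5L lower (adjusted p = 0.00086, 0.0077 and 0.045). Over all 17243 tested genes the block called 2218 higher and 2065 lower. Whether the replicate numbers pair these groups is not settled.

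IER3 was called in this comparison without combination replicate 3 (1.87, edgeR adjusted p = 0.037) and stood at 0.61 without combination replicate 2 (edgeR adjusted p = 0.38). Its range over all alternatives was 0.00086 to 0.38. The DESeq2 call for PHLDA1 had an adjusted p of 0.038, within a range of 0.0077 to 0.29. With upper-quartile scaling the median of all genes in this comparison moved by 0.11, and IER2 and CSRNP1 were then at 0.02 and 0.10. Over all genes 62.6% of calls were higher with TMM scaling and 86.6% with upper-quartile scaling.

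**Figure D2:**
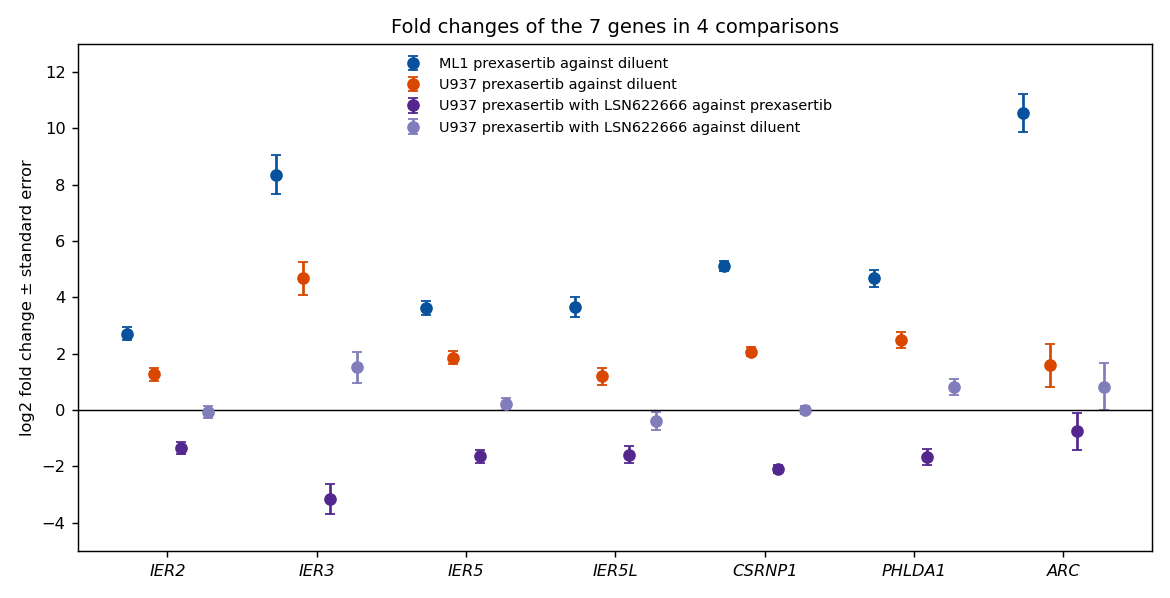
Log2 fold changes of the 7 genes (points, bars of 1 standard error) in 4 comparisons. ML1 values with prexasertib exceed those of U937 for each gene, and all 7 points for the combination against prexasertib lie below 0, from -0.76 in ARC, which had no call, to -3.17 in IER3.

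**Figure D3:**
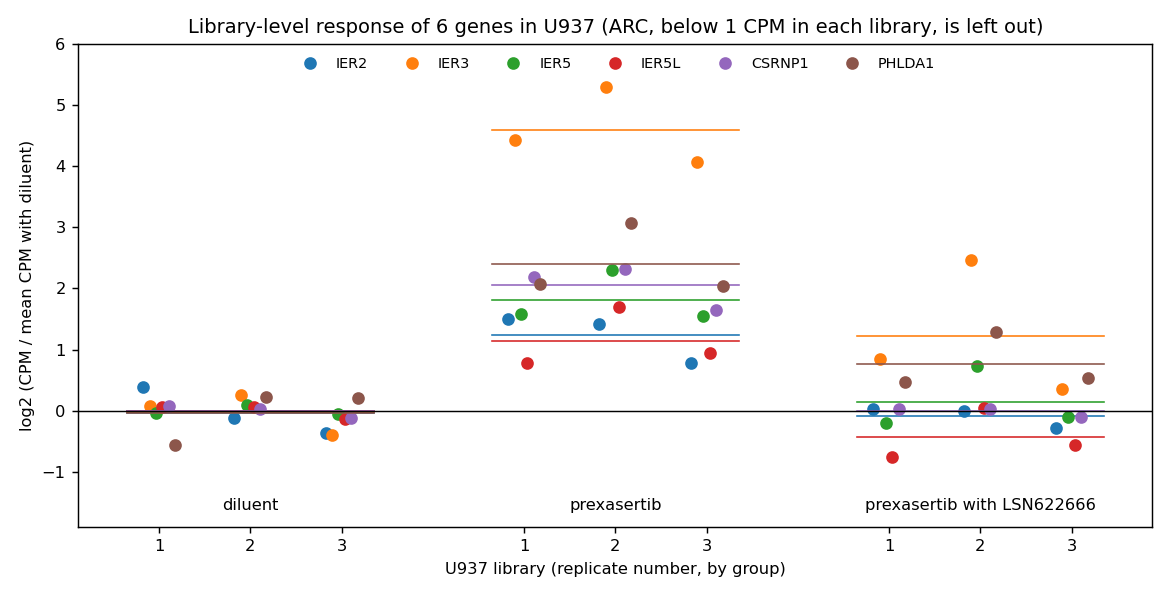
Log2 ratio of each U937 library to the mean diluent CPM for 6 genes, by group and replicate number, with lines for group means. IER3 and PHLDA1 have all 3 combination libraries above 0, while those of CSRNP1 are within 0.1 of it.

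Compared per kilobase of annotated exon, the order of levels changed with treatment. In ML1 with diluent IER2 led at 17.0 ± 2.29 CPM per kb (mean ± SD, n = 3), followed by IER5 at 8.77 ± 1.32. CSRNP1 (1.98 ± 0.15), IER5L (1.22 ± 0.42), IER3 (0.572 ± 0.257), PHLDA1 (0.295 ± 0.026) and ARC (0.0117 ± 0.0003) came below, in CPM per kb. The libraries of IER2 and IER5 did not overlap in that group, nor did those of CSRNP1 and IER5L.

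In ML1 with prexasertib IER3 had the highest mean, 193 ± 83.0 CPM per kb. IER2 (111 ± 31.4) and IER5 (109 ± 3.11) came next and were not apart beyond their spread, and the libraries of IER3 and IER2 overlapped as well. CSRNP1 followed at 68.5 ± 2.31, then ARC at 18.7 ± 4.03, IER5L at 15.6 ± 6.94 and PHLDA1 at 7.55 ± 1.43 CPM per kb, with ARC and IER5L overlapping. PHLDA1 was divided by 8.069 kb of annotated exon, whichever part of it the cells use.

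In U937 IER2 led in all 3 groups, at 36.9 ± 10, 89.0 ± 22.02 and 34.9 ± 3.98 CPM per kb, for diluent, then prexasertib, then the combination. With diluent IER5 (8.44 ± 0.46), IER5L (5.54 ± 0.43), CSRNP1 (3.98 ± 0.28), IER3 (1.45 ± 0.32), PHLDA1 (0.238 ± 0.066) and ARC (0.0296 ± 0.0301) followed in CPM per kb, no neighbours overlapping. With prexasertib IER3 came next at 37.5 ± 17.2 CPM per kb, its libraries overlapping those of IER5 at 30.6 ± 9.62. With both compounds IER3, at 4.19 ± 3.39, overlapped IER5 (9.77 ± 3.75), IER5L (4.25 ± 1.26) and CSRNP1 (3.95 ± 0.20).

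Across the 15 libraries the log2 levels of the genes moved together to different degrees. IER5 and PHLDA1 had the highest Pearson correlation, 0.987, followed by IER3 and CSRNP1 at 0.972. IER5 and its relative IER5L correlated at 0.764, lower than IER5L with IER2 (0.949). The lowest value was that of IER5L and ARC, 0.645. ARC had at most 44 reads in any library outside ML1 with prexasertib, so its correlations rest mainly on that group. These are descriptions over 15 libraries that share 2 lines and the same treatments.

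By the same measure, the genes outside the set most like IER3 among 10918 with a mean of at least 5 CPM were C3, TNFAIP3 and JUN (0.995, 0.986 and 0.985). Those most like IER5 were PMAIP1, SQSTM1 and BTG2 (0.992, 0.991 and 0.991), and those most like CSRNP1 were CXCL10, DENND5A and JUND (0.990, 0.989 and 0.986). PHLDA1 was most like IFIT2, PTGS2 and CXCL2 (0.988, 0.988 and 0.987) and ARC most like DDX58, IFI27 and TYMP (0.976, 0.973 and 0.973). For ARC these values too rest mainly on the treated ML1 libraries. IER2 was most like IL1B, STX11 and STARD5 (0.968, 0.964 and 0.963) and IER5L most like TUBB2A, RNF19B and CARD8-AS1 (0.978, 0.969 and 0.965).

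Of the relatives of the set, the transcription-linked CSRNP2 was at 42.5 ± 3.43 and 91.8 ± 7.07 CPM in ML1 with diluent and prexasertib (mean ± SD, n = 3). Its U937 levels were 17.3 ± 2.30 CPM (diluent), 46.4 ± 13.1 CPM (prexasertib) and 16.8 ± 1.93 CPM (combination). It rose by 1.11 ± 0.16 in ML1 and 1.42 ± 0.17 in U937 (adjusted p = 2.3e-05 and 1.7e-05 from edgeR). The combination lowered it by 1.47 from prexasertib alone (-1.47 ± 0.17, edgeR adjusted p = 2e-05). Its response had no call for a difference between the lines (0.31 ± 0.23, edgeR adjusted p = 0.37), where CSRNP1 had a difference of -3.04.

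PHLDA2, a relative of PHLDA1, rose by 4.48 ± 0.46 in ML1 and by 2.88 ± 0.38 in U937 (adjusted p = 3.1e-07 and 5.1e-05 from edgeR). It fell by 2.42 ± 0.37 with the combination against prexasertib (edgeR adjusted p = 2e-04). PHLDA3, a p53 target that opposes AKT, went from 11.3 ± 2.12 to 129 ± 24.5 CPM in ML1 (3.51 ± 0.32, edgeR adjusted p = 1e-07, n = 3). In U937 it stayed below 1.1 CPM in each library with no call (1.03 ± 0.49, edgeR adjusted p = 0.12). CSRNP3 was below the filter, with 0 counts in 4 groups and 4, 10 and 4 counts in U937 with prexasertib.

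A list of 36 other immediate early genes, chosen from general knowledge with earlier results known, gives the setting. Of the 35 tested, 33 rose and 1, MYC, fell in ML1, the smallest p being those of BTG2 (4.49 ± 0.21), PLK3 (2.87 ± 0.16) and TNFAIP3 (7.30 ± 0.37). In U937 31 rose and 1, again MYC, fell, the smallest p being those of BTG2 (2.39 ± 0.19), the phosphatase DUSP1 (4.25 ± 0.34) and PPP1R15A (3.03 ± 0.26). Of all tested genes 25.3% rose in ML1 and 18.3% in U937. The list median was 3.96 in ML1 and 2.86 in U937. The members' medians were 4.68 and 1.86.

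For the difference between lines, 17 of the 35 were lower in U937 and 18 had no call, the smallest p being those of FOSL1 (-2.53 ± 0.25), PLK3 (-1.95 ± 0.21) and DUSP2 (-2.82 ± 0.31). Their median difference was -1.27 and that of the 7 members -2.46, and 12.3% of all tested genes were called lower. With the combination against prexasertib 31 of 35 fell and 4 had no call, the smallest p being those of BTG2 (-2.15 ± 0.19), DUSP1 (-3.15 ± 0.32) and MAFF (-2.49 ± 0.28). Their median was -2.15, and 17.1% of all tested genes fell.

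Against diluent, 9 of the 35 were still higher in the combination, where 6.88% of all tested genes were, and 26 had no call. TNFAIP3 (1.23 ± 0.29), KLF2 (1.93 ± 0.47) and FOSB (1.18 ± 0.29) had the smallest p (adjusted p = 0.014, 0.017 and 0.018 from edgeR). The list median was 0.60 and that of the members 0.21. The count of 9 was 0 without U937 diluent replicate 3 or combination replicate 2, 2 without diluent replicate 2, 3 without combination replicate 1 and 5 with no low-count filter. Whether members and list differ was not tested.

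The MAPK feedback genes, inhibitors that ERK signalling switches on against itself, were 9 in number. In U937 8 of them rose with prexasertib and 8 fell when LSN622666 was added, the exception both times being SPRED1. Of all tested genes 18.3% rose and 17.1% fell in the same comparisons. ERRFI1, which restrains the EGF receptor, moved by 2.02 ± 0.25 and -1.97 ± 0.25 and the phosphatase DUSP6 by 1.10 ± 0.25 and -1.21 ± 0.25. These 2 comparisons share the prexasertib libraries. In ML1 6 rose, where 25.3% of all tested genes did, with DUSP5 up by 5.14 ± 0.30. DUSP6 (0.48 ± 0.24), SPRED1 and ERRFI1 had no call. The list median was 1.01 in ML1 and 1.10 in U937.

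SRF and its partners act at many immediate early promoters. Of 6 such genes 2 rose and 3 fell in ML1 and 1 fell in U937. SRF rose by 0.62 ± 0.10 in ML1 (edgeR adjusted p = 9.3e-05) and had no call in U937 (-0.00 ± 0.10, edgeR adjusted p = 0.99). Its partner gene MKL2 fell in both lines, by 0.92 ± 0.14 and 0.39 ± 0.14 (adjusted p = 2.9e-05 and 0.04 from edgeR). For the combination against prexasertib SRF was at 0.19 ± 0.10 and MKL2 at 0.18 ± 0.14 (adjusted p = 0.18 and 0.34 from edgeR). Of 10 targets of HSF1, the partner of IER5, 3 rose and 3 fell in ML1, and 1 rose and 1 fell in U937. With the combination against prexasertib 1 fell, the medians of the 3 comparisons being -0.30, -0.17 and -0.14. Of all 17243 tested genes 4370 rose and 4049 fell in ML1, and 3160 and 2209 did so in U937. The combination against prexasertib lowered 2947 of them. Nothing is read from these counts of SRF partners or HSF1 targets.

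**Figure D4:**
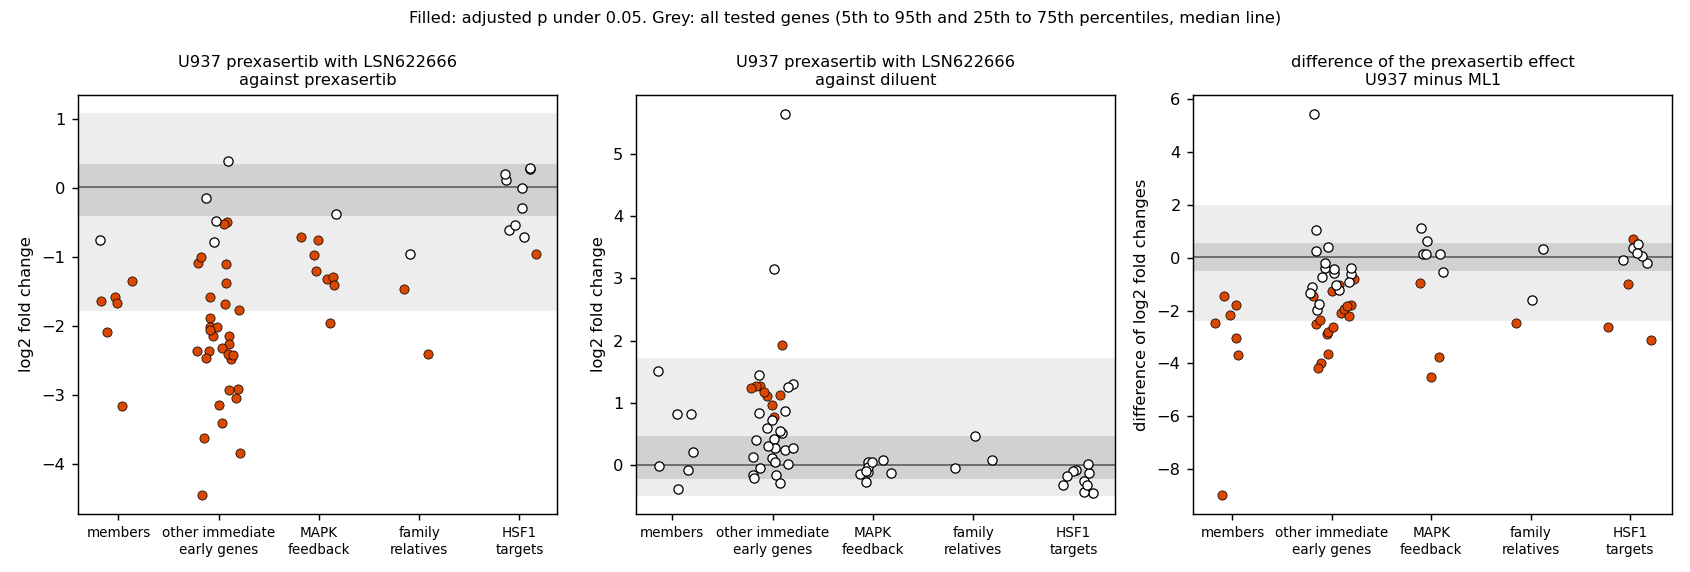
Log2 fold changes of the members and of 4 context lists in 3 comparisons, each point a gene, filled where the adjusted p was under 0.05. Grey bands give the 5th to 95th and 25th to 75th percentiles of all tested genes. The 7 members lie below 0 in the left and right panels and spread around 0 in the middle one, where 9 other immediate early genes are filled.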

How the data were processed

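The file the authors deposited holds unnormalized whole-number counts for 15 libraries, 1 row for each gene symbol. The submitters' processing notes name hg38, featureCounts 1.4.6, Bowtie2 2.2.6 and TopHat2 2.0.14. Annotation, strand setting and the treatment of mates were not given in the sources used here. Every column matched a sample by name, and none was left out.

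Differences were tested with edgeR 4.0.16 under R 4.3.3: filterByExpr by group, TMM scaling, 1 mean per group over all 15 libraries and robust quasi-likelihood F tests (10 residual degrees of freedom), Benjamini-Hochberg adjusted over 17243 genes. A call is an adjusted p under 0.05. CPM use the TMM-scaled totals. Standard errors are the log2 fold change over the root of F. The procedure was tested on simulated data with known changes placed in the combination group. Within groups, log2 CPM (prior count 2) of replicates had correlations between 0.982 and 0.9937.

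The members, context lists and naming rule (all members, the 3 most alike genes for each, and the 3 context genes with the smallest p) were chosen with earlier results of these data known. Genes whose part in a list was given singly otherwise, such as MYC, MPO and PECAM1, were named after their values were seen. GENCODE v29 gave positions and exon lengths. Alternatives were DESeq2 1.42.0, 2 other scalings, 2 other filters, narrower fits, a replicate block and leaving out each library. Same-numbered combination and prexasertib libraries deviated together (correlations 0.409, 0.37 and 0.384, all over 0.1), so the numbers were taken as pairing these groups. The main tests did not use this pairing, and the replicate block was run as an alternative. In each other pair of groups at least 1 correlation was under 0.1, which does not show that those groups are unpaired.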

Additional observations from a re-analysis of the deposited data

Results flagged for a closer look

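The prexasertib response differed between the lines by edgeR's quasi-likelihood test of the difference for each of the 7 genes, always smaller in U937. The differences of log2 fold changes were -1.44 for IER2, -3.67 for IER3, -1.77 for IER5, -2.46 for IER5L, -3.04 for CSRNP1, -2.19 for PHLDA1 and -8.97 for ARC. The test is built from the prexasertib and diluent libraries whose values were in view when the genes were picked, so it is no independent evidence. Groups of 3 libraries are too small for a check of single libraries far from the rest.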

How the results depend on the processing

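Over 12 to 19 alternatives a gene and comparison, 564 values of the 7 members kept direction and side of the threshold, 9 newly passed it, 1 no longer passed it and 13 changed sign, the last all without a call. With the replicate block the combination against diluent had 3 members called in place of 0 (IER3 1.33 and PHLDA1 0.80 higher, IER5L -0.43; edgeR adjusted p = 0.00086, 0.0077 and 0.045) and 21 other immediate early genes in place of 9. Same-numbered libraries of those 2 groups had correlations of 0.386, 0.268 and 0.0477, the last under the limit of 0.1. Whether the numbers pair them is not settled. The block also called IER3 with diluent between lines (1.43, edgeR adjusted p = 0.00028) and changed no other call of the members. In the combination against diluent, DESeq2 called 1 member, and the list count was 5 with no low-count filter. There CSRNP1 was at 0.0323 in a fit to U937, 0.0905 with the stricter filter and 0.0958 with upper-quartile factors, and IER2 at 0.0186 and 0.0217 under the last 2. Leaving out 1 library gave 0 to 1 members and 0 to 12 list genes there, and ranges of -0.0976 to 0.0284 for CSRNP1, -0.2691 to 0.1336 for IER2 and -0.1514 to 0.3459 for IER5. Between lines with diluent IER5 ranged from -0.1604 to 0.0572. ARC ranged from -0.0756 to 2.3888 for prexasertib against diluent in U937 and from -1.2355 to 0.8805 for the combination against prexasertib. Over all genes the combination against diluent had 1186 higher and 709 lower calls, and 2218 and 2065 with the block, 1620 and 1395 with DESeq2, 1528 and 236 with upper-quartile factors, 993 and 273 with the stricter filter, 1041 and 519 with none and 952 and 218 in a fit to U937. The causes were not tested. Few reads limit ARC outside treated ML1.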
